A study of Mus musculus with 1037 samples.

Results

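The genes described here are 10 that build the junctions between neighbouring cells of an epithelium: the classical cadherins Cdh1 (E-cadherin) and Cdh3 (P-cadherin), and the desmosome genes Dsp, Dsg2, Dsg3, Dsc2, Dsc3, Pkp1, Jup and Perp. They were chosen by name, and each was matched by its symbol to 1 Ensembl identifier among the 55335 genes of the count table, 21604 of which the annotation calls protein coding. RNA was measured by Smart-seq2, which makes a library from the polyadenylated RNA of each single sorted cell in a well, in wild-type mouse skin cells labelled as hair follicle epithelium. The labels give 3 stages of the hair cycle: late anagen (AnaVI, the end of hair growth), and CatVI and CatVII, which belong to catagen, the regression of the follicle.

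At AnaVI the sorts were LOS, from the lower outer root sheath (ORS), and MOS and UOS, which both carry the label of the upper-middle ORS. At CatVI there were 6 plates of upper ORS whose titles hold P17f, P17 being postnatal day 17 in the study's notation, while the labels name no age for the other stages: plates 1 and 2 carry the same title, PhagoHFSC_alive, plates 3 and 4 NonPhagoHFSC_alive, plate 5 PhagoHFSC_apop and plate 6 NonPhagoHFSC_apop. At CatVII, also upper ORS, the sorts were OSalive and OSapop. By the study's methods the cells were gated as single, negative for Sca1 and for markers of blood, endothelial, melanocyte and fibroblast lineages, and positive for CD34 and Itga6, and lower and upper ORS came from separate fractions of the skin. Each stage pools the cells of several animals, none of which the labels identify. Each sort or plate was therefore 1 sample without replicates, no test between them was made, and stage, sort and batch cannot be told apart.

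Adherens junctions hold epithelial cells together through classical cadherins, whose cytoplasmic tails bind catenins and, through them, actin. Desmosomes do so through desmogleins and desmocollins, whose tails bind plakoglobin (Jup) and plakophilins, and these in turn bind desmoplakin (Dsp), which anchors keratin filaments. In the hair follicle, E-cadherin is found through most of the epithelium, and P-cadherin is known above all from the lower follicle, the matrix and the hair germ.

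Cells with 2000 or more detected genes were kept, 463 in all: 39 of LOS (41.9%), 38 of MOS (52.8%), 19 of P17f plate 1 (21.6%), 9 of plate 2 (12.3%), 15 of plate 5 (17.6%), 14 of plate 6 (20.3%) and 92 of OSapop (65.2%). UOS and OSalive each kept over 100 cells (83.6% and 80.1%). No cell of plates 3 and 4 passed (0 of 67 and 0 of 57). Levels below are CPM, the counts of a gene summed over the cells of a sort per 1000000 summed counts of protein-coding genes, and the 95% intervals in parentheses are exact Poisson limits, which cover counting error only. Summed protein-coding counts ran from 328232 in plate 6 to 47720291 in OSalive, so that plates carry the widest intervals. One cell held 28.1% of the counts of LOS and another 32.1% of those of plate 2. Levels were therefore also taken without the deepest cell of each sample and as the mean over cells of each cell's CPM, and an order that turned on 1 cell is given with the value without it.

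Other cell types were not absent. The 8 fibroblast and dermal papilla markers summed to 7090 CPM in LOS, against 19.6 to 1950 elsewhere, with Col3a1 (3264 CPM) and Col1a1 (2135 CPM) leading, and no gene of that list was at 0 in LOS. Melanocyte markers (7 genes) summed to 889 CPM in LOS and 1134 in plate 2, against 24.6 to 258.5 elsewhere, and endothelial markers (5 genes) to 428 in LOS and 274.3 in plate 1, against 0 to 45.1. Inner root sheath and shaft markers (10 genes) reached 4493 CPM in UOS and 2181 in LOS, against 138.2 to 554. Immune markers (7 genes) stayed between 0 and 93.3 CPM. The 10 keratinocyte and ORS markers, led by Krt5 and Krt14, were counted in every sort and plate, from 6708 CPM in plate 2 and 7905 in LOS up to 34116 in plate 5. The levels, ratios and pair shares of the 10 genes were therefore also computed without the cells in which the markers of those other types outweighed the keratinocyte markers. These were 11 LOS cells, 7 UOS cells, 1 MOS cell, 2 OSalive cells, 1 OSapop cell and 1 to 3 cells of plates 1, 2 and 6. As in any summed sample, fewer cells of a type and less RNA per cell cannot be told apart.

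All 10 genes had counts in all 9 samples. Together they took 0.504% of the protein-coding counts in LOS, 0.857% in MOS, 1% in UOS, 1.04% to 2.04% on the plates, 1.32% in OSalive and 1.33% in OSapop. Divided by transcript length, Perp, a tetraspan membrane protein of desmosomes, and Jup, which serves both desmosomes and adherens junctions, were the 2 highest in LOS, MOS, UOS, OSalive and OSapop, and made up 31.9% and 26.1% of the summed level per length in LOS. On plates 1 and 2 Dsp ranked first instead, at 22.5% and 23.1%, although 1 cell held 55.6% of the Dsp counts of plate 2. Dsc2 ranked last everywhere, at 0.0493% (OSapop) to 1.54% (plate 1).

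**Figure D1:**
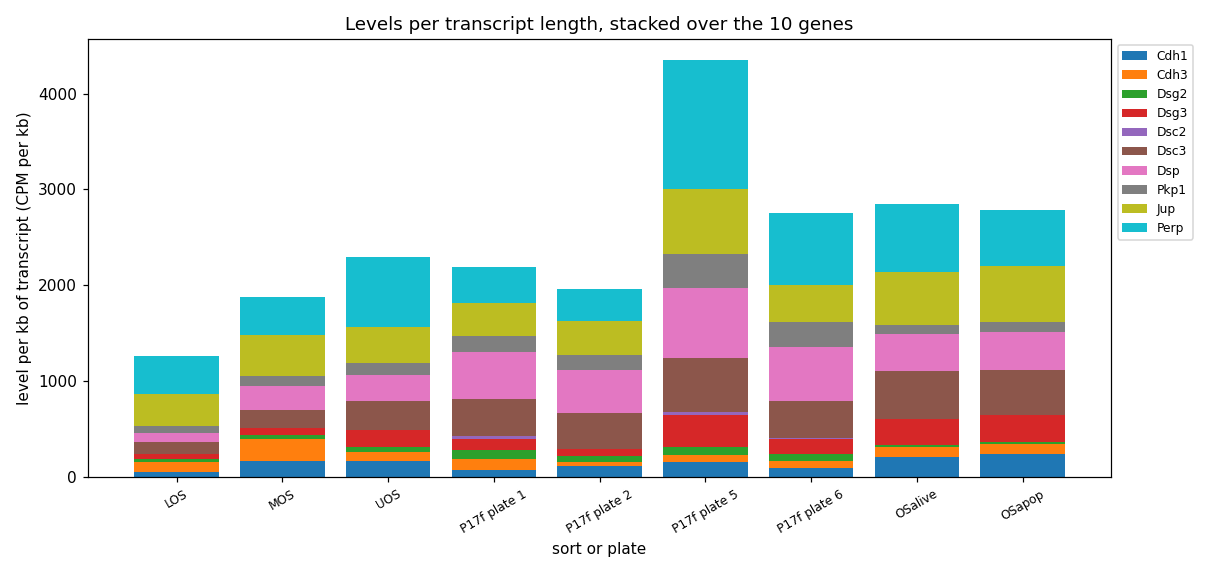
Level per kb of transcript of the 10 genes, stacked, in each sort or plate with passing cells. Perp (light blue) and Jup (olive) are the largest parts of the bars of LOS, UOS and OSalive, and the plate 5 bar stands highest.

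Cdh1 and Cdh3 lie side by side on chromosome 8 (GRCm39, the build of the files). Cdh3 (ENSMUSG00000061048.8) spans 107237456 to 107283929 and Cdh1 (ENSMUSG00000000303.12) spans 107329941 to 107396880, both on the plus strand, with no protein-coding gene starting between them. The level of Cdh1 was 222.2 CPM (202.97 to 242.7) in LOS, 746 (705 to 788) in MOS, 743 (729 to 757) in UOS, 337 (304 to 372) on plate 1, 505 (439 to 578) on plate 2, 683 (631 to 739) on plate 5, 417 (350 to 493) on plate 6, 925 (917 to 934) in OSalive and 1076 (1058 to 1093) in OSapop. LOS was thus lowest in the summed counts, but without the deepest cells it stood at 305 CPM (278.6 to 333) and plate 1 at 293.4 (260.7 to 329), which overlap. The 2 upper-middle sorts overlapped, as did plate 6 with plates 1 and 2 and plate 5 with MOS and UOS, and both CatVII sorts lay above all others. Without the deepest cells plate 6, at 470 CPM (392 to 558), overlapped neither plate 1 nor plate 2, which was at 673 (581 to 775). Plate 5, at 597 (545 to 654), then lay below MOS (727 to 817) and UOS (708 to 737). One cell held 43.1% of the Cdh1 counts of plate 2, which stood at 330 CPM without it. Cdh3 stood at 445 CPM (418 to 474) in LOS, 1016 (969 to 1066) in MOS, 428 (417 to 439) in UOS, 499 (459 to 542) on plate 1, 196.2 (156.02 to 243.5) on plate 2, 310 (275.1 to 348) on plate 5, 326 (267.2 to 394) on plate 6, 453 (447 to 459) in OSalive and 419 (408 to 430) in OSapop. MOS stood apart at the top, LOS, UOS, OSalive and OSapop lay close together, plates 5 and 6 overlapped, and the equally titled plates 1 and 2 lay at opposite ends of the plates. Without the deepest cells plate 2 stood at 271.3 CPM and plate 6, at 201.8, was lowest instead. Without the cell of each sample richest in Cdh3, plate 2 was lowest, at 78 CPM. It was also lowest, at 91.3 CPM, without the cells dominated by other markers.

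**Figure D2:**
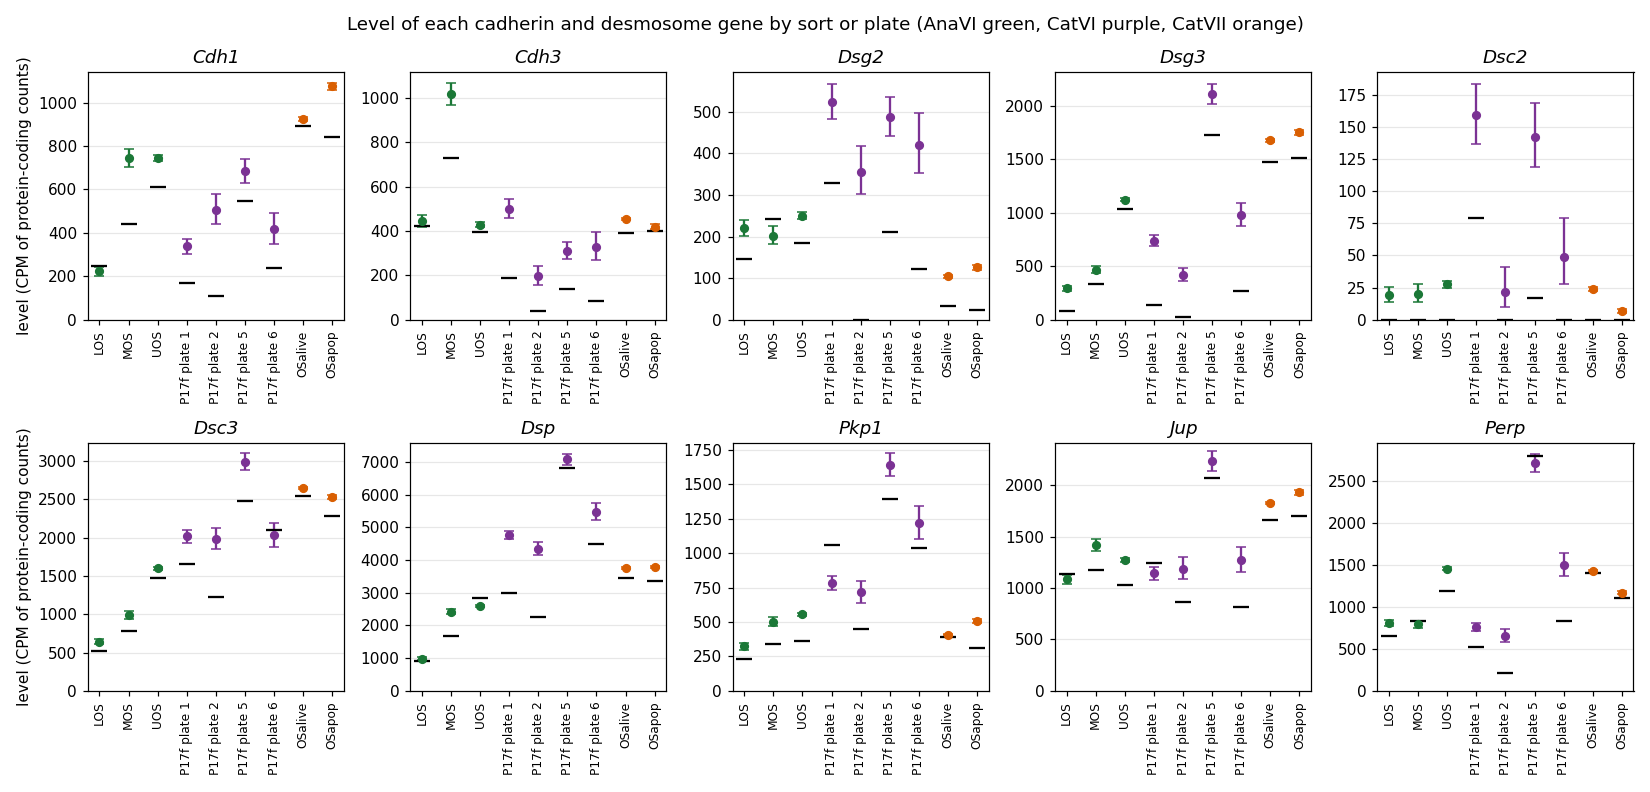
Level in CPM (y axis) of each gene in each sort or plate (x axis), points with exact 95% Poisson intervals, and the median over single cells as a black dash. In these summed counts Cdh1 is lowest in LOS, Cdh3 is highest in MOS, and Dsg2 is lower in both orange CatVII sorts than in any other sample. Without its deepest cell, plate 2 falls to 84.6 CPM of Dsg2.

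The balance of both cadherins was read as the share of Cdh3 in their summed counts per transcript length, with an exact binomial interval. Cdh3 made up 66.6% (64.1 to 69) in LOS, 57.6% (55.8 to 59.4) in MOS and 36.4% (35.7 to 37.2) in UOS, so that it was the larger part in 2 of the 3 AnaVI sorts and the smaller in the other. The 2 CatVII sorts lay at 32.8% (32.4 to 33.1) in OSalive and 27.9% (27.3 to 28.6) in OSapop. The plates ran from 27.9% (22.8 to 33.4) on plate 2 through 31.1% (28.1 to 34.2) on plate 5 and 43.7% (37.4 to 50.2) on plate 6 to 59.6% (56.4 to 62.7) on plate 1. Plates 1 and 2, which share their title, differed as widely as LOS and UOS, which differ in region, and on plate 2 1 cell held 64.6% of the 82 counts of Cdh3. Without the cell with most counts of both genes the share on plate 2 was 17.9%, and it was 57.9% in LOS and 30% on plate 6 when their richest cell was left out. Leaving out the cells dominated by other markers gave 66.9% in LOS, 57.4% in MOS, 38.8% in UOS and 59.6% on plate 1, but 16.9% on plate 2.

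Single cells held both cadherins in most cases, though not on plates 2 and 6. Counts of both were found in 29 of 39 cells of LOS, 34 of 38 of MOS, 94.6% of UOS, 95.2% of OSalive and 89 of 92 of OSapop, and on the plates in 13 of 19, 3 of 9, 11 of 15 and 7 of 14 cells (plates 1, 2, 5 and 6). Cells with Cdh1 and no count of Cdh3 numbered 6 in OSalive and 3 in OSapop, where no cell had Cdh3 alone, whereas LOS had 5 cells with Cdh3 alone and 4 with Cdh1 alone. Depth differs between the sorts, so each cell with enough reads was also thinned to 10000 protein-coding counts, by the expected value over all draws. This left out 15 of 39 cells of LOS, 6 of 38 of MOS, 6 of 92 of OSapop and at most 1 cell of any other sample. The thinned share of cells with both genes was 67.9% in LOS, 89.4% in MOS, 80.3% in UOS, 79% in OSalive and 85.1% in OSapop. Cells with Cdh3 alone then made up 17.5% in LOS, 5% in MOS, 6.96% in UOS, 3.09% in OSalive and 1.5% in OSapop. Those with Cdh1 alone made up 10.5%, 5.6%, 11.9%, 17.8% and 13.1%, in the same order. On plates 1, 2, 5 and 6 the thinned share with both genes was 46.1%, 15.7%, 57.9% and 47.9%.

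Within a sort the balance ranged widely from cell to cell. In cells with 10 or more counts over both genes, the median Cdh3 share was 67.7% in 24 cells of LOS (quartiles 38.6 and 87), 61.8% in 33 of MOS (40.1 and 79.6), 38.1% in UOS (20.5 and 58), 29.6% in OSalive (15.2 and 50.9) and 26.6% in 86 of OSapop (14.8 and 45.6). The quartile ranges of LOS and UOS overlap, so cells of both sorts span shared values. Cells in which Cdh3 was the larger part numbered 16 of 24 in LOS, 20 of 33 in MOS, 41 in UOS (38%), 32 in OSalive (25.6%) and 18 of 86 in OSapop. At the extremes, a Cdh3 share of 10% or less was seen in 1 cell of LOS and 22 of OSalive, and one of 90% or more in 4 cells of LOS, 3 of OSalive and none of OSapop. On the plates, 13, 5, 12 and 8 cells met the count minimum, with medians of 69.8%, 19.9%, 23.8% and 39.6% (plates 1, 2, 5 and 6). The rank correlation across cells of Cdh1 with Cdh3, as log2(CPM + 1), was -0.05 in LOS, -0.41 in MOS, -0.20 in UOS, -0.19 in OSalive and -0.12 in OSapop, over the same cells, and the share ranked with a cell's protein-coding counts at -0.14 to 0.00. These are descriptions, since the cells of a sort share its batch and its pool of mice and CPM values share their denominator.

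**Figure D3:**
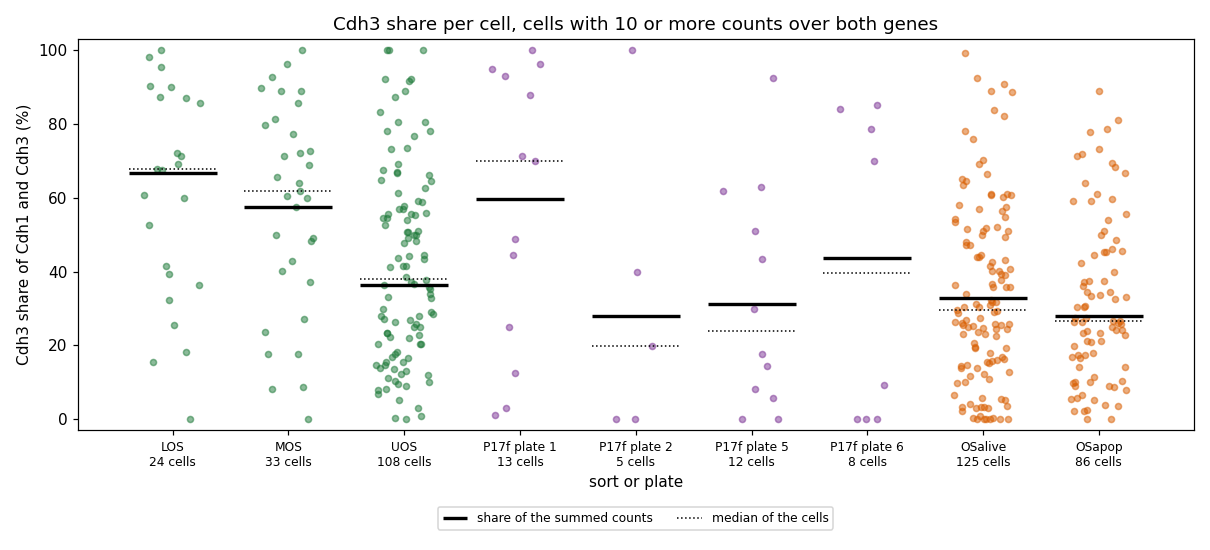
Cdh3 share of Cdh1 and Cdh3 in percent (y axis) for each cell with 10 or more counts over both genes (points), by sort or plate (x axis), with the share of the summed counts (thick line) and the median over cells (dotted). The lines of LOS, MOS and plate 1 lie above 50%, and cells spread from near 0 to near 100% in UOS and OSalive.

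The desmogleins and desmocollins are desmosomal cadherins. Dsg2 (ENSMUSG00000044393.15, chromosome 18, 20691074 to 20737581) and Dsg3 (ENSMUSG00000056632.8, 20643331 to 20680516) lie next to each other on the plus strand, and Dsc2 (ENSMUSG00000024331.11, 20163675 to 20192717) and Dsc3 (ENSMUSG00000059898.9, 20093987 to 20135408) on the minus strand of the same chromosome. Dsg2 is the desmoglein of simple epithelia and is also found in basal layers, whereas Dsg3, the antigen of pemphigus vulgaris, belongs to the basal layers of stratified epithelia.

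The Dsg2 level was 220.4 CPM (201.3 to 240.8) in LOS, 202.3 (181.3 to 225.1) in MOS, 250 (241.9 to 258.3) in UOS, 524 (483 to 568) on plate 1, 356 (302 to 419) on plate 2, 487 (443 to 535) on plate 5, 420 (353 to 497) on plate 6, 103.96 (101.1 to 106.9) in OSalive and 125.4 (119.4 to 131.5) in OSapop. Plates 1, 5 and 6 of CatVI were highest, the AnaVI sorts lay between, and the CatVII sorts were lowest, an order of these 8 samples that also held without the deepest cells and as the mean over cells. Without the deepest cells, however, plate 6 (275.4 to 418) overlapped LOS (267.9 to 322). By the median over cells the order did not hold. That median was 211.6 CPM on plate 5 and 122.8 on plate 6, against 241.3 in MOS and 184.4 in UOS. Plate 2 has no firm place in it, since 1 cell held 83.9% of its Dsg2 counts. Without that cell, the deepest of the plate, it was at 84.6 CPM (54.2 to 125.8), and its mean over cells was 219.5. Dsg3 was at 292.5 CPM (270.4 to 316) in LOS, 466 (434 to 500) in MOS, 1122 (1105 to 1139) in UOS, 738 (689 to 789) on plate 1, 419 (359 to 485) on plate 2, 2110 (2017 to 2206) on plate 5, 975 (871 to 1088) on plate 6, 1674 (1662 to 1685) in OSalive and 1749 (1727 to 1771) in OSapop. Plate 5 and the CatVII sorts were the 3 highest, and LOS was lowest in the summed counts. One cell held 80% of the Dsg3 counts of plate 2, which without it stood at 123.3 CPM (85.9 to 171.5), below LOS. Dsg2 thus made up 44.6% (41.6 to 47.5) of both desmogleins per length in LOS, 31.7% (28.9 to 34.5) in MOS and 19.2% (18.6 to 19.8) in UOS, and 6.21% (6.05 to 6.38) in OSalive and 7.1% (6.78 to 7.44) in OSapop. On the plates its share was 43.1%, 47.6%, 19.8% and 31.5% (plates 1, 2, 5 and 6). The value of plate 2 is in the main that of 1 cell, since only 3 of its cells had 10 or more counts over both genes, and plate 6 was at 23.7% without its deepest cell. A count of Dsg2 was found in 90.2% of the cells of UOS but in 56.8% of OSalive and 58.7% of OSapop, although OSalive cells were read more deeply (median 364123 protein-coding counts against 90246). Thinned to 10000 counts, the shares of cells with Dsg2 were 68.8%, 36.8% and 39.6%. On plates 1, 5 and 6 the thinned shares were 80.3%, 65.6% and 56.1%.

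Dsc3, the main desmocollin of basal keratinocytes, was at 642 CPM (609 to 676) in LOS, 991 (943 to 1040) in MOS and 1598 (1578 to 1619) in UOS. It stood at 2015 (1934 to 2099), 1981 (1848 to 2121), 2991 (2880 to 3105) and 2035 (1884 to 2196) on plates 1, 2, 5 and 6, at 2648 (2634 to 2663) in OSalive and at 2533 (2506 to 2560) in OSapop. The CatVII sorts and plates 1, 5 and 6 lay above every AnaVI sort. Plate 2 did so only with its deepest cell, which held 61.7% of its Dsc3 counts, and stood at 1117 CPM (997 to 1247) without it, below UOS. Dsc2 was the rarest of the genes, with 18.9 CPM (13.6 to 25.6) in LOS, 19.8 (13.6 to 27.8) in MOS, 27.4 (24.8 to 30.3) in UOS, 159.2 (137.03 to 183.9) on plate 1, 21.5 (9.85 to 40.9) on plate 2, 142.5 (119.2 to 169.1) on plate 5, 48.7 (27.9 to 79.2) on plate 6, 23.7 (22.3 to 25.1) in OSalive and 6.46 (5.17 to 7.96) in OSapop. These sums came from few cells: 9 in LOS, 3 in MOS, 22 in UOS, 10, 1, 8 and 4 on plates 1, 2, 5 and 6, 14 in OSalive and 4 in OSapop. Each of them also had counts of Dsc3. Dsc2 made up at most 8.19% (7.09 to 9.39, plate 1) of both desmocollins per length and as little as 0.287% (0.23 to 0.354, OSapop).

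**Figure D4:**
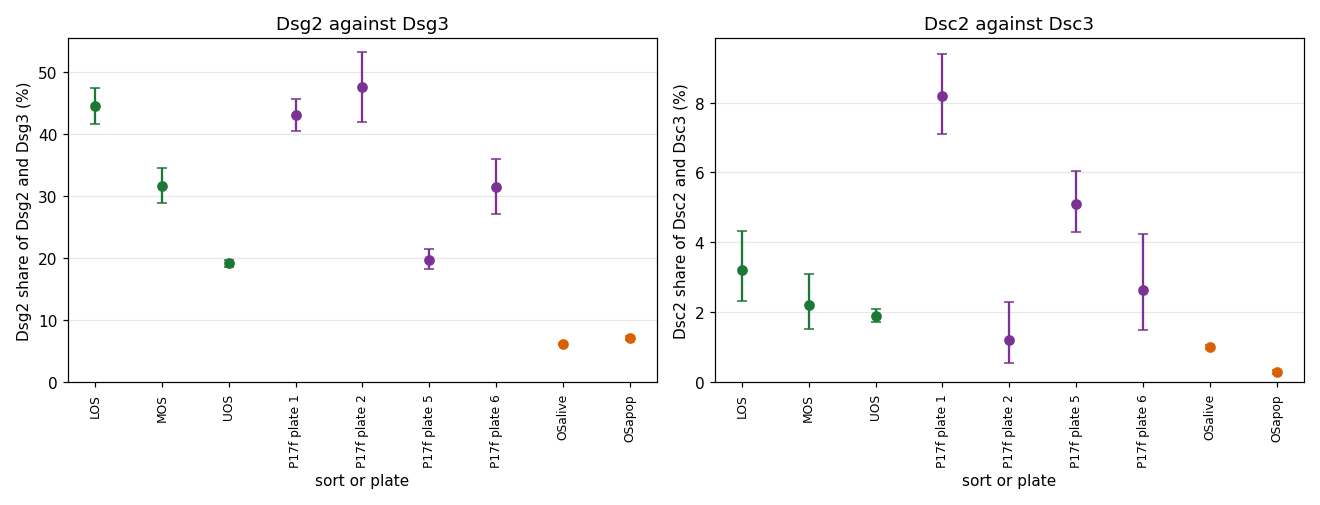
Share in percent (y axis) of Dsg2 in the sum of Dsg2 and Dsg3 (left) and of Dsc2 in the sum of Dsc2 and Dsc3 (right), per transcript length, in each sort or plate (x axis), with exact 95% binomial intervals. The Dsg2 share is higher in LOS than in UOS and is lowest in OSalive and OSapop, and the Dsc2 share is highest on plates 1 and 5.

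Dsp (ENSMUSG00000054889.10, chromosome 13, 38335230 to 38382553, plus strand) links the desmosomal plaque to keratin. Its level was 979 CPM (938 to 1021) in LOS, 2415 (2341 to 2491) in MOS, 2594 (2568 to 2621) in UOS, 4753 (4628 to 4880), 4347 (4149 to 4551), 7081 (6910 to 7255) and 5472 (5222 to 5731) on plates 1, 2, 5 and 6, 3755 (3737 to 3772) in OSalive and 3776 (3743 to 3809) in OSapop. Plates 1, 5 and 6 lay above CatVII, CatVII above AnaVI, and LOS below all others. On plate 2 1 cell held 55.6% of the Dsp counts, and without it the level was 2840 CPM (2647 to 3043), below both CatVII sorts. Pkp1 (ENSMUSG00000026413.12, chromosome 1, 135799133 to 135846945, minus strand), a plakophilin that clusters desmosomal proteins, followed another order. It was at 323 CPM (299.9 to 348) in LOS, 504 (471 to 540) in MOS, 556 (544 to 569) in UOS, 409 (403 to 415) in OSalive and 508 (496 to 520) in OSapop, and at 781 (731 to 834), 715 (637 to 801), 1641 (1559 to 1726) and 1219 (1102 to 1344) on plates 1, 2, 5 and 6. Pkp1 was highest on plates 1, 5 and 6, and lower in OSalive than in UOS. On plate 2 1 cell held 51.8% of the Pkp1 counts, and without it the level was 387 CPM, below UOS and MOS, whereas it was 898 without the deepest cell of the plate, which is another cell.

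Jup (ENSMUSG00000001552.14, chromosome 11, 100259784 to 100291103, minus strand) had the lowest ratio of its highest to its lowest level among the genes in these sums. It stood at 1086 CPM (1043 to 1131) in LOS, 1416 (1360 to 1475) in MOS, 1276 (1257 to 1294) in UOS, 1143 (1082 to 1206), 1191 (1089 to 1301), 2237 (2141 to 2336) and 1277 (1157 to 1405) on plates 1, 2, 5 and 6, 1829 (1817 to 1841) in OSalive and 1932 (1908 to 1955) in OSapop. LOS and plate 1 overlapped, plate 6 overlapped UOS, and plate 5 lay above all in the sums. Without the deepest cells plate 5 (1976 to 2178) overlapped OSapop (1939 to 1988). Plate 2, level with plate 1 here, was at 1511 CPM without its deepest cell. Another cell held 49% of its Jup counts, and without that cell the level was 699 CPM. Perp (ENSMUSG00000019851.8, chromosome 10, 18720715 to 18732821, plus strand), also a target of p53, was at 807 CPM (770 to 845) in LOS, 792 (750 to 836) in MOS, 1452 (1432 to 1471) in UOS, 757 (708 to 809), 653 (578 to 735), 2707 (2602 to 2815) and 1499 (1369 to 1637) on plates 1, 2, 5 and 6, 1427 (1416 to 1438) in OSalive and 1168 (1150 to 1187) in OSapop. LOS, MOS and plate 1 lay close together, and plate 5 was highest, also at 2483 CPM without its deepest cell. The spread over single cells was far larger than these intervals: in UOS the quartiles over cells were 946 and 1670 CPM for Perp, 620 and 1508 for Jup and 1970 and 3272 for Dsp.

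The first comparison asks how the lower ORS differs from the upper-middle ORS at the same stage. Relative to UOS, 4 of the 10 genes in LOS were over 2-fold lower and none over 2-fold higher, where 13.3% and 14.6% of the 10755 genes tested passed those limits. The log2 ratio was -1.94 (exact binomial interval -2.06 to -1.83) for Dsg3, -1.74 (-1.87 to -1.61) for Cdh1, -1.41 (-1.47 to -1.34) for Dsp and -1.32 (-1.39 to -1.24) for Dsc3. Cdh3, at 0.06 (-0.04 to 0.15), did not differ from UOS beyond its counting interval. The median of the 10 genes was -0.82, against 0.07 over all genes tested. Of the 10 keratinocyte and ORS markers, 6 were over 2-fold lower in LOS as well and none over 2-fold higher, with a median of -1.12, and their part in the result was not tested. Without the deepest LOS and UOS cells the median relative to all genes moved from -0.89 to -0.71, and Dsp moved to -0.98. Without the cells dominated by other markers, which held 54.8% of the counts of LOS, that median was -0.85 and Dsp was at -0.94, and LOS stood at 262.1 CPM of Cdh1, 1264 of Dsp, 389 of Dsg3 and 828 of Dsc3.

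MOS and UOS carry one regional label. One gene, Cdh3, was over 2-fold higher in MOS, at a log2 ratio of 1.25 (1.17 to 1.33), and 1 gene, Dsg3, over 2-fold lower, at -1.27 (-1.37 to -1.16), beside 8.03% and 19.9% of the 10439 genes tested. Cdh1 was level with UOS at 0.01 (-0.08 to 0.09), and its sign changed with the scaling. The median of the 10 genes was -0.22, and that of all genes tested -0.18. Taking the mean over cells of each cell's CPM lowered the Cdh3 ratio to 0.77, whereas Dsg3 stayed past 2-fold.

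From AnaVI to CatVII, OSalive was set against UOS. Dsg2 alone of the 10 passed 2-fold, at -1.27 (-1.33 to -1.20), beside 19.1% of the 12199 genes tested that were over 2-fold lower. None was over 2-fold higher, where 13.8% of all genes were. Dsc3 (0.73), Dsg3 (0.58), Dsp (0.53) and Jup (0.52) were higher under each scaling tried but by less than 2-fold, Pkp1 was at -0.45, and Cdh1 (0.32), Cdh3 (0.08) and Perp (-0.02) changed sign with the scaling or the weight of cells. The median of the 10 was 0.20 against -0.01 over all genes.

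In CatVII, the sort titled OSapop was set against OSalive. Dsc2 was over 2-fold lower at -1.87 (-2.21 to -1.56), a value that rests on 4 cells of OSapop (4.35%, exact interval 1.2 to 10.8) and 14 of OSalive (11.2%, 6.26 to 18.1), shares whose intervals overlap, and 11.6% of the 11988 genes tested were over 2-fold lower. No gene of the 10 was over 2-fold higher, where 7.42% of all genes were. Apart from Dsc2, the ratios lay between -0.29 (Perp) and 0.31 (Pkp1), and the median of the 10 was 0.04 against -0.02.

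**Figure D5:**
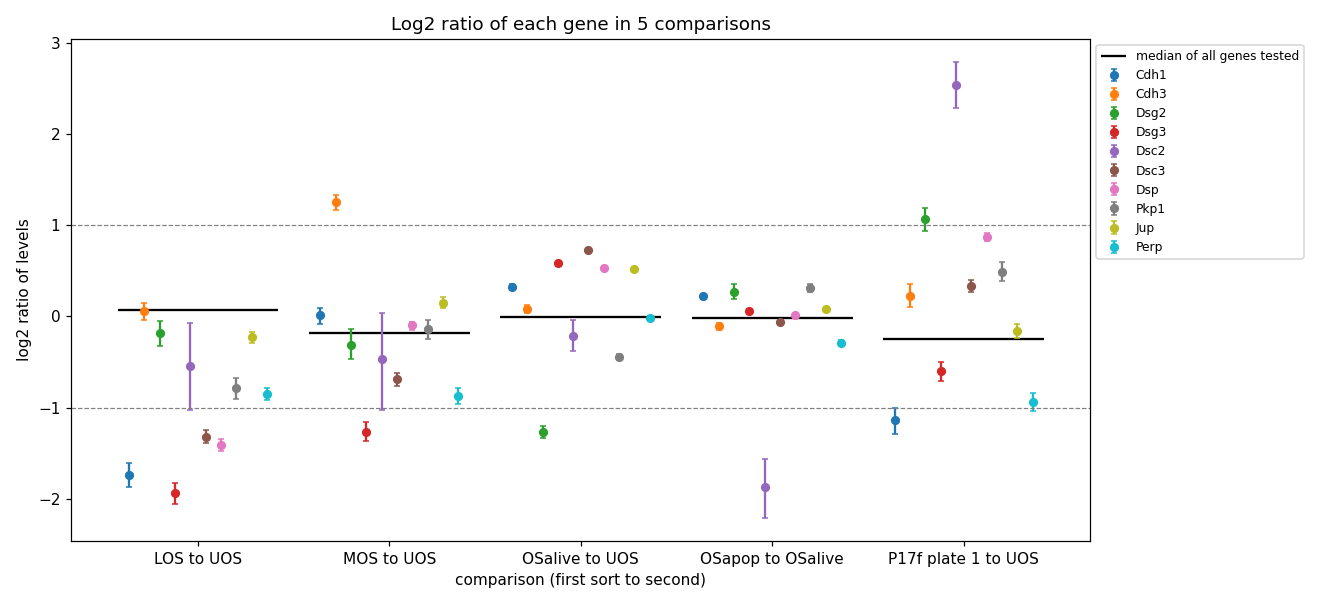
Log2 ratio of the levels (y axis) of each gene in 5 comparisons (x axis), with exact binomial intervals, dashed lines at 2-fold and the median of all genes tested as a black line. Most points of LOS to UOS lie below that line, and in OSapop to OSalive only Dsc2 lies beyond a dashed line.

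The plates of CatVI show how far 2 samples of one title can lie apart. Set against plate 1, plate 2 gave log2 ratios of -2.89 (-4.04 to -1.93) for Dsc2 and -1.35 (-1.70 to -1.01) for Cdh3, both over 2-fold lower, and none of the 10 was over 2-fold higher. Of the 3682 genes tested, 27.9% and 16.1% were. Dsc3 (-0.02), Jup (0.06), Dsp (-0.13) and Pkp1 (-0.13) were close in the sums. Without the deepest cell of each plate, however, Dsc3 was at -0.96, Dsp at -0.83, Dsg2 at -2.55 and Dsg3 at -2.79, and Cdh3 was within 2-fold at -0.89, so that several ratios between these plates turn on single cells. Dsc2 stayed past 2-fold, at -2.55. Without the cells of other markers Cdh3 was at -2.51 instead. Against this spread, plate 1 to UOS gave 2.54 (2.28 to 2.79) for Dsc2 and 1.07 (0.94 to 1.19) for Dsg2, over 2-fold higher beside 15% of the 10453 genes tested, and -1.14 for Cdh1, over 2-fold lower beside 32.1%. Dsg2 was within 2-fold of UOS, at 0.75, as the mean over cells and, at 0.94, without the deepest cells. The Dsc2 intervals of plate 2 and UOS overlapped. Dsg2 was above UOS on plates 1, 5 and 6 under these choices, but on plate 2 only with its deepest cell. By the median over cells plate 6, at 122.8 CPM, lay below UOS, at 184.4. Over all genes the median for plate 1 to UOS was -0.25.

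Plate 5 (PhagoHFSC_apop) to plate 1 (PhagoHFSC_alive) had 4 of the 10 genes over 2-fold higher, beside 12.7% of the 4392 genes tested: Perp at 1.84 (1.73 to 1.95), Dsg3 at 1.52, Pkp1 at 1.07 (0.95 to 1.19) and Cdh1 at 1.02 (0.84 to 1.21). None was over 2-fold lower, where 21.5% of all genes were, and the median of the 10 was 0.77 against -0.16. Against plate 2, the other plate titled PhagoHFSC_alive, the ratios of these genes were 2.05, 2.33, 1.20 and 0.44, so Cdh1 lay within 2-fold there. Pkp1 also lay within 2-fold of plate 2 without the deepest cells (0.80), without the cells of other markers (0.70) and as the mean over cells (0.79). Perp and Dsg3 stayed past 2-fold of plate 2 under these choices. Of the 4, Perp alone stayed past 2-fold against plate 1 without the deepest cells (1.73), without the cells of other markers (1.78) and as the mean over cells (1.30). As the mean over cells Dsg3 was at 0.87, Pkp1 at 0.68 and Cdh1 at 0.78. Keratinocyte markers moved with them, at 34116 CPM on plate 5 against 14678 and 6708 on plates 1 and 2, and their part in the result was not tested. Plate 6 (NonPhagoHFSC_apop) to plate 5 had 2 genes over 2-fold lower, Dsc2 at -1.55 (-2.40 to -0.79) and Dsg3 at -1.11 (-1.29 to -0.94), beside 18% of the 2769 genes tested, and none over 2-fold higher, beside 10.8%. Dsg3 was within 2-fold without the deepest cells (-0.72), without the cells of other markers (-0.95) and as the mean over cells (-0.84), and Dsc2 stayed past it.

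Among other junction genes, the further desmosome genes (10 in the list) held 8 that could be tested in LOS to UOS, of which 4 were over 2-fold lower and 2 over 2-fold higher. Pkp3, a plakophilin, was at 274.4 CPM in LOS and 551 in UOS, Ppl (periplakin) at 163.6 and 348, and Dsg1a at 172.1 and 372, with log2 ratios of -1.01, -1.09 and -1.11, and Dsg1b at 38.8 and 61.6. The other genes past 2-fold in that comparison, named after their values were seen, were Dsc1, lower at -1.23, and Dsg4 and Pkp4, higher at 2.57 and 1.36. Dsg1a and Dsg1b are near-identical paralogs, and their counts may be split between them. In OSalive to UOS, 3 of 8 of that list were over 2-fold lower (Dsg1a at -1.44, Dsg4 at -2.79 and Dsc1 at -3.73) and none higher. In OSapop to OSalive 1 of 7 was lower, Dsc1, at 0.371 CPM against 6.04, and none higher. Of all genes tested there, 11.6% were over 2-fold lower and 7.42% higher. Of the 12 adherens junction partners, 1 was over 2-fold lower in LOS to UOS and none higher, beside 13.3% and 14.6% of all genes tested. It was Afdn (afadin, which joins nectins to actin), at 365 and 850 CPM. Ctnnb1 (beta-catenin, which binds the cadherin tail) was at 814 and 728 and Ctnnd1 (p120-catenin) at 341 and 432. In MOS to UOS 1 partner was higher and 2 were lower, beside 8.03% and 19.9% of all genes tested. In OSalive to UOS 1 was higher and 1 lower, beside 13.8% and 19.1%. In OSapop to OSalive 1 was higher and 1 lower, beside 7.42% and 11.6%. These were Nectin2, higher at 53.9 CPM against 24.6, and Nectin3, lower at 0.148 against 6.45. Of the tight junction genes, 1 of 7, Cgn (cingulin, a plaque protein of tight junctions), passed 2-fold upward in LOS to UOS at 1.28, and none downward. F11r was at 283.4 CPM in LOS and 331 in UOS.

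Transcription factors known to repress Cdh1 were low. Snai2 was at 23 CPM in LOS, 47.4 in MOS, 56.9 in UOS, 62.9 in OSalive and 34.3 in OSapop. Zeb1 and Zeb2 stood at 56.8 and 87.9 CPM in LOS against 1.74 and 7.36 in UOS, in 23.1% and 38.5% of LOS cells. In LOS Cdh1 was lowest in the summed counts, though not without the deepest cells, and fibroblast and melanocyte markers were high. On plate 2, where melanocyte markers were also high, Zeb2 was at 83.7 CPM and Cdh1 at 505. On plate 1 Zeb2 was at 0 and Cdh1 at 337. In the 28 LOS cells without dominance of other markers Zeb1 was at 11 CPM (4 cells), Zeb2 at 48.8 (7 cells) and Cdh1 at 262.1. The part of the other cells in these levels was not tested. Zeb1 was at 0 in MOS and on plates 5 and 6.

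Over the 9 samples, the non-member genes whose log2(CPM + 1) ran most like that of Cdh1, among 11002 protein-coding genes at 20 CPM or more in at least 1 sample, were Crip2 (Pearson r = 0.944), Ppp2r3a (0.927) and Lmna (0.926). For Cdh3 they were Ctbp2 (0.959), Hadha (0.942) and Egfr (0.936). With 9 points and that many genes these are a description of likeness alone. Across the single cells of UOS and OSalive, the members that ranked most alike were Dsg3 with Dsc3 in UOS (Spearman rho 0.39, and 0.23 in OSalive) and Dsc2 with Dsc3 in OSalive (0.41, and 0.11 in UOS), and Dsp with Dsc3 stood at 0.32 and 0.38. Cdh3 with Perp was lowest in both, at -0.24 and -0.29.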

How the data were processed

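The authors trimmed and aligned reads with STAR 2.6 to mm39, quantified them with Salmon 1.4.0 and deposited estimated counts (expected counts) per gene, without normalization or a filter on cells. Of 55335 gene identifiers, 93.3% were found in GENCODE M39, which gave symbols, biotypes, GRCm39 positions and canonical transcript lengths. 92 spike-ins were kept apart, counts were rounded to whole numbers, and cells with 2000 or more detected genes were summed per sort or plate. Levels were scaled to protein-coding counts, 16.6% to 21.1% of each total, since 1 identifier without annotation took 65.5% of all counts. Lars2 took 2.06% to 10.6% of that denominator.

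Ratios used exact binomial splits, genes with 100 or more counts over both samples and 2-fold as the limit, and a count of 0 was set to 3. Reads carry no molecular identifiers, so intervals (95%) cover counting error only. All 10 members are named, and from other lists at most the 4 genes with the highest mean CPM, except Dsc1, Dsg4, Pkp4, Nectin2, Nectin3 and Cgn, named after their values were seen. The members and lists were chosen with earlier results of these data known. A cell whose labels conflict and a sample without counts were left out. Well labels occurred in 2 cells of a sort 160 times, and no 2 of the 464 passing cells had the same counts. One listed gene had no match. No reference sequences were used. Python 3.11.15, numpy 2.4.6 and scipy 1.17.1 were used. The ratios were also run on Poisson counts simulated from the summed UOS profile, which hold no spread between cells or mice and cannot test for it.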

Additional observations from a re-analysis of the deposited data

Results flagged for a closer look

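The ratio of the sorts titled apop to those titled alive had opposite signs for Perp at the 2 catagen stages. In CatVII it was -0.29 on the log2 scale (-0.31 to -0.26), OSapop lying below OSalive. In CatVI plate 5 lay above both plates titled PhagoHFSC_alive, by 1.84 against plate 1 and 2.05 against plate 2. Without the deepest cells these were 1.73 and 1.77. Dsc3 also had opposite signs in the sums, at -0.06 (-0.08 to -0.05) in CatVII against 0.57 and 0.59 in CatVI. Its CatVII ratio ran from -0.10 to 0.09 under other choices. Keratinocyte markers were higher on plate 5 too, and their part was not tested. These CatVI plates carry PhagoHFSC titles, which the CatVII sorts do not. Each stage holds 1 pool of mice and the difference between stages was not tested.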

How the results depend on the processing

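Results were computed again with other choices of scaling, cell weight, gene minimum, deepest cell and gene filter and, chosen after seeing the data, leaving out cells dominated by markers of other cell types. Relative to all genes, the median log2 ratio of the 10 genes was -0.89 for LOS to UOS, -0.04 for MOS to UOS, 0.21 for OSalive to UOS, 0.06 for OSapop to OSalive and 0.53 for P17f plate 1 to UOS. These medians have no counting interval, and they cannot test the scaling, since a change of scaling shifts them and all genes alike and cancels. Of the 50 ratios of single genes, 27 left their counting intervals with total gene counts and 29 with the other scaling. With the mean over cells 35 did, without the deepest cells 29, and without the cells of other markers 27. Under the other gene minimums at most 1 did. The sign was kept by 40 of the 50 with the mean over cells and by 42 without the cells of other markers. It was kept by 45 with total gene counts and by 47 with the other scaling and without the deepest cells. With the mean over cells the median relative to all genes was -0.20 for MOS to UOS, 0.31 for OSalive to UOS and -0.04 for OSapop to OSalive. Without the deepest cells LOS to UOS was -0.71. Without the gene filter LOS to UOS was -1.02, OSalive to UOS 0.28, OSapop to OSalive 0.04 and plate 1 to UOS 0.33.

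The mean over cells gave a Cdh3 share of 60.9% in LOS, 41.7% in UOS, 33.7% in OSalive and 32.1% in OSapop. Leaving out the cell with most counts of both genes gave 57.9% in LOS, 62.8% in MOS, 38% in UOS, 63% on plate 1, 17.9% on plate 2, 35.2% on plate 5, 30% on plate 6, 33.8% in OSalive and 30.3% in OSapop. Without cells dominated by other markers it was 38.8% in UOS and 16.9% on plate 2. In no sample did the share cross 50%. The cause of these shifts was not tested, apart from the cells left out by construction.

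Total gene counts as denominator shifted the median of all genes by -0.34 for OSalive to UOS, 0.15 for OSapop to OSalive and -0.11 for MOS to UOS. Of 11 ratios past 2-fold, all 11 stayed so under both other scalings and gene minimums. With the mean over cells 9 did, the others being Cdh3 in MOS to UOS (0.77) and Dsg2 in plate 1 to UOS (0.75). Without the deepest cells 9 did, the others being Dsp in LOS to UOS (-0.98) and Dsg2 in plate 1 to UOS (0.94), and without the cells of other markers 10 did, the other being Dsp in LOS to UOS (-0.94). Levels, desmosomal pair shares and ratios between plates were computed under the choices on cells after seeing the data. Without the deepest cells the place of plate 2 in the order of levels changed for every gene of the 10 except Perp. For Dsc2 that place rests on 9 counts. No paired analysis was possible because the results come from no test. Depth limits the plates most, and Dsc2 rests on few cells everywhere.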
